A study of Mus musculus with 6 samples.

Results

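T cell receptor segment genes are the variable (V), diversity (D), joining (J) and constant (C) gene pieces from which the antigen receptors of T cells are built. They were taken from an array data set as every probe set annotated to exactly 1 gene whose symbol begins with the receptor prefix for an alpha, beta, gamma or delta chain segment. The rule found 21 probe sets, of which 2 repeated the values of an earlier row in all 6 arrays and were dropped. The 19 remaining rows carried 8 gene symbols, out of 22180 symbols on 23521 probe sets with a single symbol and 34472 probe sets in all. All 8 symbols were V segments: 16 rows named 5 alpha chain genes, 1 row named a beta chain gene and 2 rows named a gamma chain gene each. No D, J or C segment and no delta chain segment was annotated alone to a probe set, so the comparison is one of V segments, and 1 further probe set that named an alpha V segment together with another gene was left aside. The RefSeq annotation of the mouse assembly GRCm38.p6 lists 270 receptor segments, among them 130 alpha, 35 beta and 7 gamma V segments, and most were not analysed here.

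The arrays held RNA of CD4+CD25+ regulatory T cells (Treg) from female C57BL/6 mice aged 8 to 12 weeks, 3 independent samples from HDAC10-/- mice and 3 from wild type (WT) mice. HDAC10-/- mice carry a KOMP deletion allele of the histone deacetylase gene Hdac10 in all cells, so the developing T cells in the thymus and the other cells of the lymphoid organs lacked it as well. The cells came from spleens and peripheral lymph nodes by bead-based selection, and no treatment is given for either group. The strain name of the HDAC10-/- mice gives a C57BL/6N background, and the substrain of the WT mice was not given in the sources used here. The question asked of the arrays was which transcripts differ between HDAC10-/- and WT Treg.

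Developing T cells cut and join a V segment to a J segment by the RAG recombinase. In beta and delta chains a D segment lies between them. The cell then transcribes the joined V segment through to the constant region. The V signal of a bulk Treg sample therefore comes mainly from the mixture of cell clones in it. Treg, like other CD4+ T cells, carry an alpha chain paired with a beta chain, while gamma and delta chains form the receptor of a separate lineage, the gamma delta T cells. In C57BL/6 mice large blocks of the alpha V locus were duplicated, which left near-identical segments marked by "d" or "n" in their symbols. A probe set named for one segment can therefore read transcripts of its copies too, and the segment behind each row is uncertain. In such bulk samples, fewer cells using a segment and less RNA per cell cannot be told apart.

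Hdac10 itself was at log2 signals of 6.11, 6.22 and 6.22 in HDAC10-/- replicates 1 to 3 and at 9.03, 9.30 and 8.95 in WT replicates 1 to 3, a difference of -2.91 (limma, adjusted p = 1.39e-04). It was lower in each HDAC10-/- array than in any WT array, which matches the genotypes that the labels give. Foxp3, the transcription factor that defines Treg, was at 12.53 to 12.66 in HDAC10-/- and 12.50 to 12.58 in WT arrays. Of 8 Treg marker genes 2 were lower at an unadjusted p under 0.05 in limma. So were 6.95% of all probe sets and 12.5% of those with a mean log2 signal over 9. None of the 8 passed an adjusted p under 0.1. Nor did any of 6 measured genes of conventional and naive T cells, none of which reached an unadjusted p under 0.05. Signals correlated between arrays at r = 0.995 to 0.997 within HDAC10-/-, at 0.997 within WT and at 0.994 to 0.995 across genotypes, over all probe sets. The HDAC10-/- arrays held higher signals of several genes of other cell types. Among 8 measured B cell genes 4 were higher at an adjusted p under 0.1, beside 1.25% of all probe sets. The mean log2 signal of the list was 8.68, 8.50 and 8.51 in HDAC10-/- against 7.94, 8.11 and 8.02 in WT replicates 1 to 3. Of 8 macrophage and monocyte genes 5 were higher (list means 7.69, 7.46 and 7.52 against 6.84, 6.84 and 6.88), with Lyz2, a lysozyme of myeloid cells, 1.59 higher on the log2 scale (adjusted p = 0.0286, and 0.104 to 0.113 when HDAC10-/- replicate 2, WT replicate 1 or WT replicate 2 was taken out). Of 9 CD8 T cell and NK cell genes 5 were higher, and the list means were 8.46 to 8.48 against 8.03 to 8.16. In that list 3 genes were below 0, Klrb1c (-0.23), Nkg7 (-0.08) and Cd8b1 (-0.05), and Eomes differed by 0.057. Of the B cell genes 1 was below 0, Ighm, at -0.13 without overlap, and 0 of the macrophage and monocyte genes were. HDAC10-/- replicate 1 had the highest B cell and macrophage means. With single arrays left out, the counts called higher were 1 to 3 of the B cell genes (1 without HDAC10-/- replicate 2 or without WT replicate 3), 3 to 5 of the macrophage genes and 1 to 4 of the CD8 T cell and NK cell genes (again 1 without either of those arrays). The test without moderation of the variances, with the same adjustment, called 0 of the B cell genes, 1 of the macrophage genes and 0 of the CD8 T cell and NK cell genes higher. The part these cells had in the V segment values was not tested.

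All values below are log2 signals as deposited, listed for replicates 1, 2 and 3 of a genotype, and differences are HDAC10-/- minus WT. No filter on low signals was applied, so all 19 rows were tested. Rows sharing a symbol are told apart by a letter, from the highest mean signal (a) downwards. Brightness depends on the probes as well as on the RNA, so levels of different rows are not ranked against each other. Rows of 1 symbol did not hold the same values. The 5 rows annotated to Trav9d-3 spanned mean signals from 10.67 to 13.32 over the 6 arrays.

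The alpha chain V rows were mostly slightly lower in HDAC10-/- Treg, with few differences that stood up to correction. Their median difference was -0.17 (quartiles -0.31 and -0.13), and 13 of 16 rows were below 0. Over all probe sets the median was 0.0, and 49.1% were below 0. A lean towards lower values was shared by bright probe sets in general. Among 6003 with a mean log2 signal over 9 the median was -0.033 and 62.9% were below 0, while the 14 alpha V rows over that level had a median of -0.17 and 11 below 0. In 11 of the 16 alpha rows every HDAC10-/- array lay below every WT array, and in 1 every HDAC10-/- array lay above. Such separation downwards was found in 10.9% of all probe sets and in 23.5% of those over 9, where 10 of 14 alpha V rows had it, and separation upwards in 9.89% of all probe sets and 9.66% of those over 9. At an unadjusted p under 0.05 there were 10 alpha rows lower and 1 higher, beside 6.95% and 7.73% of all probe sets and 12.5% and 4.93% of those over 9. After Benjamini-Hochberg adjustment over all probe sets, 1 alpha row was lower at an adjusted p under 0.1 and none was higher, beside 0.757% and 1.25% of all probe sets and 1.47% and 0.75% of those over 9. No row of any chain passed the study's pair of thresholds, an adjusted p under 0.1 together with more than 1.5-fold, which 0.685% of all probe sets and 0.766% of those over 9 passed. At an unadjusted p under 0.05 with the same fold, 1 row was higher and none lower. Rows of 1 locus share sequence, transcripts and samples, so the number of rows is not a number of independent observations.

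**Figure D1:**
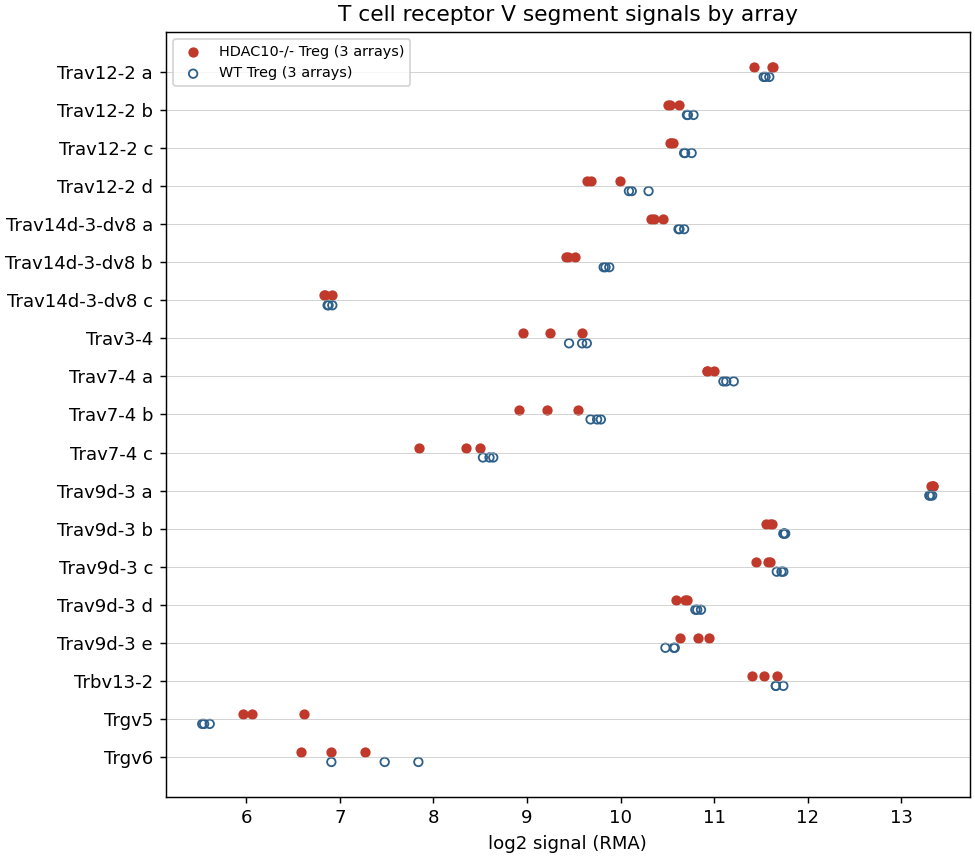
Log2 signal (x axis) of each of the 19 V segment rows (y axis) in the 3 HDAC10-/- arrays (filled red) and the 3 WT arrays (open blue). In Trav14d-3-dv8 b the groups lie 0.31 apart. They overlap in Trav12-2 a, Trav14d-3-dv8 c, Trav9d-3 a, Trav3-4, Trbv13-2 and Trgv6.

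**Figure D2:**
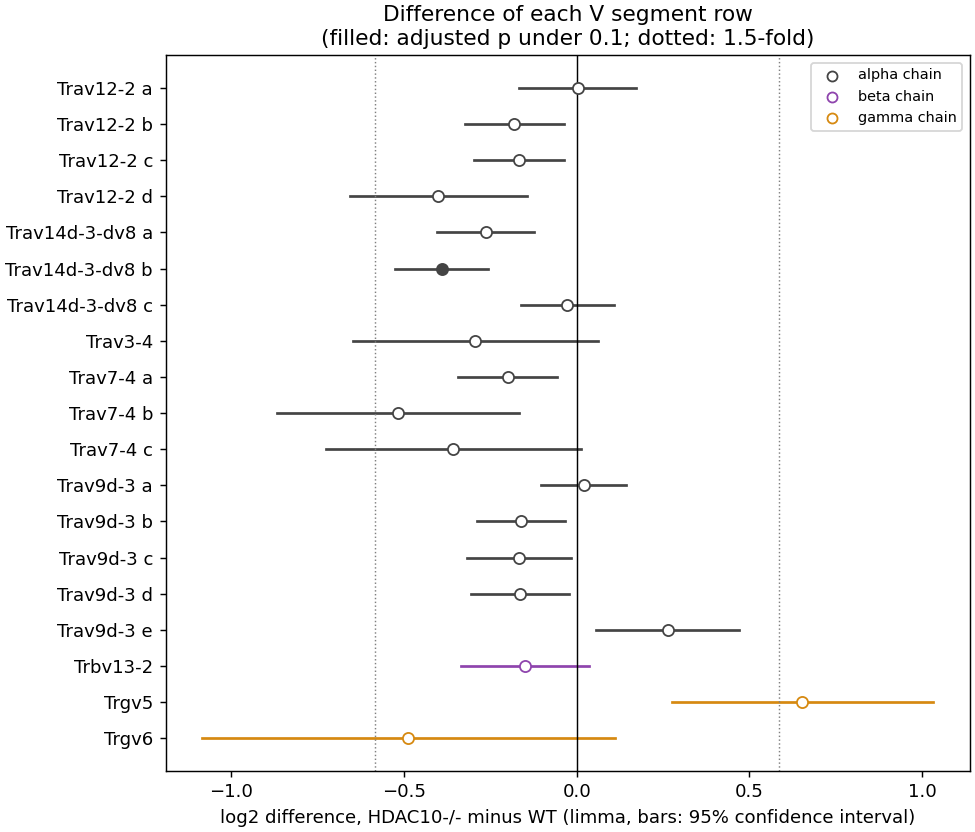
Log2 difference of each V segment row, HDAC10-/- minus WT, with its 95% confidence interval from limma; the dotted lines mark 1.5-fold. Of the 19 rows 15 lie below 0, and the 1 filled point, Trav14d-3-dv8 b, had an adjusted p under 0.1.

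Trav14d-3-dv8, a V segment that can be joined into either an alpha or a delta chain as its double name says, held the row with the smallest p. It is one of 9 segments of the Trav14 subgroup and the 47th of the 130 alpha V segments along chromosome 14 in the GRCm38.p6 annotation. Row b (probe set 17299893) was at 9.42, 9.51 and 9.44 in HDAC10-/- and at 9.84, 9.88 and 9.82 in WT Treg. The means were 9.46 ± 0.047 and 9.85 ± 0.031 (SD, n = 3 each), and the highest HDAC10-/- array lay 0.31 below the lowest WT array. The difference was -0.39 ± 0.057 (SE, 95% confidence interval -0.52 to -0.26), or 1.31-fold lower, with an adjusted p of 0.0365 in limma. The call was lost when any one of HDAC10-/- replicates 2 and 3 or the WT replicates was taken out, at adjusted p-values of 0.101 to 0.138, and was kept without HDAC10-/- replicate 1 (0.0638).

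The other Trav14d-3-dv8 rows did not pass. Row a was at 10.45, 10.33 and 10.36 in HDAC10-/- and at 10.68, 10.62 and 10.63 in WT Treg, again without overlap, a difference of -0.26 ± 0.060 with an adjusted p of 0.117 (0.0842 without HDAC10-/- replicate 1). Row c, with signals of 6.83 to 6.92 in HDAC10-/- and 6.87 to 6.92 in WT arrays, differed by -0.027 (confidence interval -0.16 to 0.11). The interval of row c leaves out a difference as large as that of row a. Its mean signal was 6.88, against 10.51 for row a and a median of 6.21 over all probe sets. Whether the low signal of row c narrowed its difference was not tested.

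Trav7-4 belongs to the largest of the 5 alpha subgroups, with 14 segments, and is the 88th along the chromosome. It had the largest negative difference among the alpha rows, but not the most certain one. Row b was at 9.55, 8.91 and 9.21 in HDAC10-/- and at 9.79, 9.68 and 9.75 in WT Treg, a difference of -0.52 ± 0.15 (confidence interval -0.87 to -0.17), or 1.43-fold lower, with an adjusted p of 0.186. The WT arrays lay within 0.11 of each other and the HDAC10-/- arrays spread over 0.64, with replicate 2 lowest and replicate 1 nearest to WT. Without HDAC10-/- replicate 1 the difference was -0.68 with an adjusted p of 0.0624, and without replicate 2 it was -0.36 with an adjusted p of 0.303. Row c showed the same order of arrays, at 8.50, 7.85 and 8.35 against 8.53, 8.64 and 8.60, a difference of -0.36 with an adjusted p of 0.354, which was -0.17 without HDAC10-/- replicate 2. Row a was tighter, at 11.00, 10.92 and 10.92 against 11.21, 11.10 and 11.13, a difference of -0.20 ± 0.061 with an adjusted p of 0.202. In all 3 rows the groups did not overlap, by as little as 0.03 in row c.

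Trav12-2 is one of 10 segments of the Trav12 subgroup and the 104th along the chromosome. Row d was at 9.99, 9.64 and 9.68 in HDAC10-/- and at 10.12, 10.09 and 10.30 in WT Treg, a difference of -0.40 ± 0.11 (confidence interval -0.66 to -0.14) with an adjusted p of 0.169, or 0.0676 without HDAC10-/- replicate 1. Rows b and c lay between 10.51 and 10.63 in the HDAC10-/- arrays and between 10.68 and 10.78 in the WT arrays, with differences of -0.18 and -0.17 and adjusted p-values of 0.246 and 0.240. Each of these rows appeared again in the table with identical values, and the repeats are those that were dropped. In rows b, c and d the groups did not overlap. Row a was at 11.43, 11.62 and 11.63 in HDAC10-/- and at 11.59, 11.55 and 11.53 in WT Treg, so that the groups overlapped fully. Its difference was 0.0033, with a confidence interval of -0.17 to 0.17.

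Trav9d-3 is the 31st alpha V segment along the chromosome and one of 11 in the Trav9 subgroup. Row a was at 13.32, 13.34 and 13.34 in HDAC10-/- and at 13.30, 13.33 and 13.31 in WT Treg, a difference of 0.02 (confidence interval -0.10 to 0.14). Its mean signal was at percentile 99.98 of all probe sets, near the top of the scale, and whether the probes were saturated was not tested. Rows b, c and d lay lower without overlap. Row b was at 11.60, 11.62 and 11.55 against 11.76, 11.75 and 11.74, row c at 11.45, 11.58 and 11.60 against 11.74, 11.67 and 11.72, and row d at 10.71, 10.59 and 10.69 against 10.86, 10.82 and 10.80. Their differences were -0.16, -0.17 and -0.16, with adjusted p-values of 0.248, 0.299 and 0.279.

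Row e of the same symbol had a difference of the other sign. It was at 10.64, 10.83 and 10.95 in HDAC10-/- and at 10.57, 10.58 and 10.48 in WT Treg, a difference of 0.26 ± 0.088 (confidence interval 0.056 to 0.47) with an adjusted p of 0.241, which was 0.0908 without HDAC10-/- replicate 1. It was the one alpha row whose HDAC10-/- arrays all lay above the WT arrays. Row e and rows b, c and d thus had differences of opposite sign under the same symbol, and none of them passed.

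Trav3-4 lies 121st along the chromosome, in a subgroup of 8 segments, and had a single row. It was at 9.59, 8.96 and 9.25 in HDAC10-/- and at 9.45, 9.59 and 9.64 in WT Treg, with overlapping groups and a difference of -0.29 ± 0.15 (adjusted p = 0.429). The difference was -0.14 without HDAC10-/- replicate 2 and -0.46 without replicate 1. As in Trav7-4 rows b and c, replicate 2 was the lowest HDAC10-/- array and replicate 1 the highest. In Trav3-4 replicate 1 lay within the WT values, while in those 2 rows it lay below them.

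The lower alpha values were present in each HDAC10-/- array. Relative to the WT mean of each row, the median of the 16 alpha rows was -0.14, -0.22 and -0.21 in HDAC10-/- replicates 1 to 3 and 0.030, -0.012 and -0.012 in WT replicates 1 to 3. The number of rows below their WT mean was 12, 13 and 13 of 16. The probe sets with a mean signal over 9 had medians of -0.030, -0.037 and -0.027 in the HDAC10-/- arrays. The HDAC10-/- arrays also differed more from each other. In 13 of 16 alpha rows, and 15 of all 19 rows, the range of the HDAC10-/- values exceeded that of the WT values, compared with 57.4% of all probe sets.

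**Figure D3:**
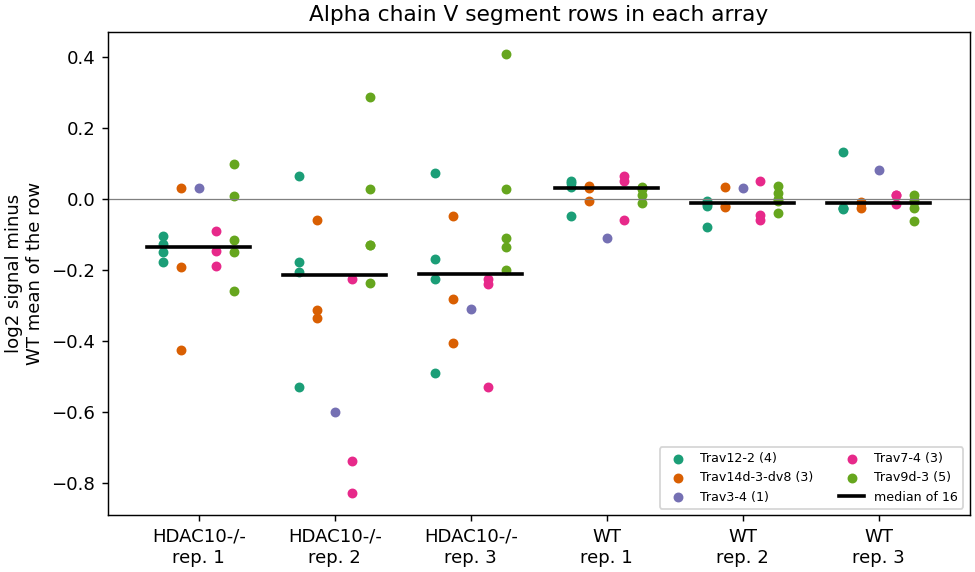
Log2 signal of each alpha V row minus its WT mean (y axis) in each of the 6 arrays (x axis), coloured by gene symbol, with black bars at the median of the 16 rows. The medians are -0.14, -0.22 and -0.21 in the HDAC10-/- arrays and -0.012 to 0.030 in the WT arrays, and the highest green points in the HDAC10-/- arrays are Trav9d-3 row e.

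Trbv13-2, on chromosome 6 and 15th of the 35 beta V segments, was the one beta chain gene and was named although it fell outside the rule for named genes, as were Trgv5 and Trgv6, after their values were seen. Its segment encodes the V region of a large group of beta chains in C57BL/6 mice. It was at 11.67, 11.41 and 11.53 in HDAC10-/- and at 11.74, 11.66 and 11.66 in WT Treg. The highest HDAC10-/- array, replicate 1, lay just above 2 of the WT arrays. The difference was -0.15 ± 0.079 (confidence interval -0.34 to 0.035, adjusted p = 0.439), and -0.087 without HDAC10-/- replicate 2, so a difference as large as the alpha median and no difference were both within its error.

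Trgv6 and Trgv5 are neighbours on chromosome 13, the third and the fourth of the 7 gamma V segments in the annotation. In mice they are rearranged early in the fetal thymus and used by gamma delta T cells that settle in skin and mucosal tissues. Trgv5 was at 6.62, 5.97 and 6.06 in HDAC10-/- and at 5.61, 5.53 and 5.55 in WT Treg, without overlap. This was the largest difference among the 19 rows, 0.65 ± 0.16 (confidence interval 0.28 to 1.03) or 1.57-fold higher, but its adjusted p was 0.138 and it did not pass. Without HDAC10-/- replicate 1, the highest array, the difference was 0.45 with an adjusted p of 0.0517. Its signals were low. The mean of 5.89 over the arrays was below 6.21, the median of all probe sets, and a signal in that range need not come from the transcript.

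Trgv6 was at 7.27, 6.91 and 6.59 in HDAC10-/- and at 7.84, 6.91 and 7.48 in WT Treg. The groups overlapped and the arrays of each genotype differed widely (SD of 0.34 and 0.47, n = 3 each), so that the difference of -0.49 ± 0.25 had an adjusted p of 0.435. Leaving out single arrays moved it from -0.27 (without WT replicate 1) to -0.74 (without WT replicate 2), and it was -0.32 without HDAC10-/- replicate 3. The differences of the 2 gamma segments thus had opposite signs, and neither passed.

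Of 12 measured marker genes of gamma delta and innate-like T cells, 1 was lower and none higher at an adjusted p under 0.1. The shares of all probe sets were 0.757% lower and 1.25% higher. The 12 genes had a median difference of -0.17 and list means of 7.56 to 7.64 in HDAC10-/- and 7.70 to 7.87 in WT arrays. The gene that fell was Il23r, a receptor chain for interleukin-23, from 7.78 to 7.11 on average (difference -0.68 ± 0.11, adjusted p = 0.0413). Taking out WT replicate 1 or 3, or one of HDAC10-/- replicates 2 and 3, gave an adjusted p of 0.105 to 0.154. Cxcr6, a chemokine receptor of tissue T cells, differed by -0.47, Il1r1, an interleukin-1 receptor, by -0.34 and Zbtb16, the transcription factor of innate-like T cells, by -0.31, with adjusted p-values of 0.136, 0.169 and 0.134. Sox13 and Blk, which mark gamma delta cells that make interleukin-17, differed by 0.023 and 0.057. Cd163l1 differed by 0.11 and Maf by 0.017. Of the 12 genes 8 were below 0, beside 49.1% of all probe sets. Il17a itself differed by -0.13 (adjusted p = 0.389) and 5830411N06Rik by -0.21 (adjusted p = 0.241), both without overlap. At an unadjusted p under 0.05, 5 of the 12 genes were lower and none higher, beside 6.95% and 7.73% of all probe sets. In 6 of the 12 the groups did not overlap, all downwards, beside 10.9% of all probe sets. The part such cells had in the Trgv5 and Trgv6 values was not tested.

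Of 10 measured genes of the T cell receptor complex, its coreceptors and its signalling, 3 of them CD3 chains, none passed in limma (the test without moderation called 2 lower). Of these 10, 9 were below 0 and the median difference was -0.092 (4 were lower and none higher at an unadjusted p under 0.05). The list mean was 11.73 to 11.75 in HDAC10-/- and 11.84 to 11.85 in WT arrays. Cd3d, a signalling chain of the complex, differed by -0.22 ± 0.056 (adjusted p = 0.152), and Cd6, a co-receptor of T cells, by -0.18 ± 0.052 (adjusted p = 0.186). Cd4, the coreceptor by which the cells were selected, differed by -0.14, while Cd3e and Cd3g, further CD3 chains of the complex, each differed by -0.06. Cd247, its zeta chain, and the kinase Lck were in the list but were not analysed here. In 6 of the 10 genes the groups did not overlap, all downwards. All 10 had signals over 9, the level at which 62.9% of probe sets were below 0, 12.5% were lower at an unadjusted p under 0.05 and 23.5% were lower without overlap.

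Among 10 measured genes of V(D)J recombination 1 was higher and none lower at an adjusted p under 0.1, beside 1.25% and 0.757% of all probe sets. Their median difference was 0.098, with 3 of the 10 below 0. At an unadjusted p under 0.05, 4 were higher and none lower, beside 7.73% and 6.95% of all probe sets. In 5 of the 10 the groups did not overlap, all upwards, beside 9.89% of all probe sets. Rag2, a subunit of the recombinase that is normally on in precursors and off in mature T cells, was at 5.11, 4.93 and 4.85 in HDAC10-/- and at 4.58, 4.46 and 4.53 in WT Treg, a difference of 0.44 ± 0.081 with an adjusted p of 0.0685. Without HDAC10-/- replicate 1 it was 0.0786, and without any one of the other arrays 0.123 to 0.217. All 6 of these signals lay below the median of all probe sets. Dntt, the enzyme that adds bases at the joins, differed by 0.26 with an adjusted p of 0.176, and Ptcra, the pre-T cell receptor chain of thymocytes, by 0.047. Of 8 measured thymocyte genes 2 were higher at an adjusted p under 0.1, Rag2 and Cd8a. At an unadjusted p under 0.05, 4 of the 8 were higher and none lower, and 5 were higher without overlap. Cd8a, shared by thymocytes and CD8 T cells, was 0.97 higher (adjusted p = 0.0449, and 0.100 to 0.144 without any one of the HDAC10-/- arrays or WT replicate 3), whereas Cd8b1, the partner chain of CD8, differed by -0.05. B cell precursors also use Rag2 and Dntt, and the part of other cells in these values was not tested.

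Genes next to or within the receptor loci gave no call with all arrays. Of 9 measured, 7 beside a locus and 2 inside one (Olfr1508 in the alpha and Prss2 in the beta locus), none passed in limma. The median difference was -0.013. At an unadjusted p under 0.05, 2 were lower, beside 6.95% of all probe sets. Without HDAC10-/- replicate 1, 1 gene was lower at an adjusted p under 0.1. In 3 genes the groups did not overlap, all downwards, beside 10.9% of all probe sets. Dad1, the first protein-coding gene beyond the alpha locus, was at 12.07 to 12.11 in HDAC10-/- and 12.17 to 12.20 in WT arrays, a difference of -0.10 (adjusted p = 0.429). Abhd4, the coding gene after it, differed by -0.27 (adjusted p = 0.179), and Ephb6, next to the beta locus, by -0.25 (adjusted p = 0.137).

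**Figure D4:**
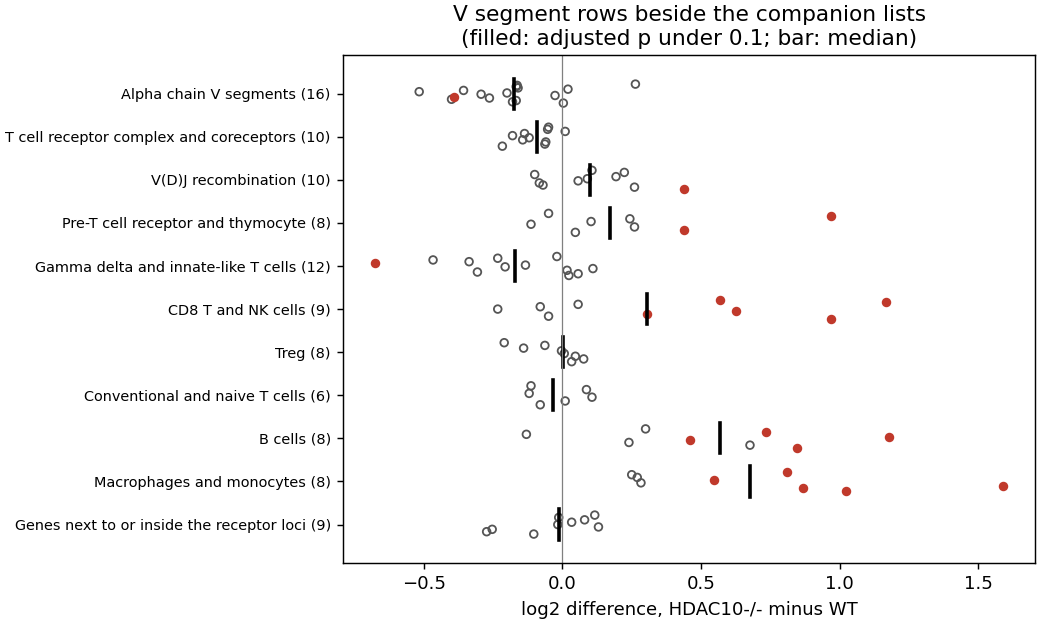
Log2 difference, HDAC10-/- minus WT (x axis), of the 16 alpha V rows and of every measured gene of 10 companion lists, with bars at the medians and filled points at an adjusted p under 0.1. The alpha V rows have a median of -0.17 and the receptor complex genes of -0.092, while the B cell and macrophage lists have medians of 0.57 and 0.68.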

How the data were processed

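RNA of the 6 samples was hybridised to Mouse Gene 2.0 ST arrays. The authors deposited 1 table of log2 signals with 2 decimals, normalised with RMA in Transcriptome Analysis Console 4.0 per the methods and notes. Background, quantile normalisation and summarisation were thus theirs, the number of arrays limits the precision, and no detection call or count was used. All value columns were mapped to a sample (0 unmapped). Probe sets took gene symbols from the platform's annotation, and all 8 segment gene IDs matched RefSeq.

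The genotypes were compared with limma 3.58.1 in R 4.3.3 (lmFit and eBayes, unpaired, two-sided, prior degrees of freedom 3.23) on all 34472 probe sets with Benjamini-Hochberg adjustment over all of them. The code was tested on simulated data. Calls used an adjusted p under 0.1, and with it 1.5-fold where said. The labels call the samples independent without naming animals or pools, so p-values measure the spread between these samples. Companion lists (97 entries, 91 genes, 83 measured) took the brightest probe set of a gene.

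Named rows were constant regions (none found), in classes of at least 5 rows the 3 brightest and the 2 largest differences each way among rows above the median signal, every row with an adjusted p under 0.1, and other rows of the same genes. Members, lists and tests were chosen with earlier results of these data known, and the background over a signal of 9 after the values were seen. Other fits, normalisations and left-out arrays were tried as alternatives.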

Additional observations from a re-analysis of the deposited data

How the results depend on the processing

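The count of segment rows lower at an adjusted p under 0.1 was 1, and became 8 with an intensity trend and the robust option, 4 with array weights, 2 with arrays centred on their medians, 8 over features brighter than the median alone, 2 over features with 1 symbol alone, and 0 to 4 when single arrays were left out (4 without HDAC10-/- replicate 1, 0 without any one of the others). The count higher was 0, and 1 with the trend and robust option, 1 with array weights and 0 to 2 when single arrays were left out. With 1.5-fold added, the count higher went from 0 to 1 with the trend and robust option and to 1 at an unadjusted p under 0.05, and the count lower went from 0 to 1 with array weights, to 1 without the fold minimum and to 0 to 1 when single arrays were left out. The alpha V median stayed between -0.14 and -0.21. The gamma V median of 0.083 was -0.49 over brighter rows, where Trgv6 alone was left, and ran from -0.10 (without HDAC10-/- replicate 1) to 0.21 (without HDAC10-/- replicate 3) when single arrays were left out, being -0.05 without WT replicate 2. Of the companion genes 15 were higher, and 1 with a plain t-test and 5 to 12 with single arrays left out. The count lower was 1, and 2 with the plain test, 10 with the trend and robust option, 4 with array weights, 3 with centred arrays, 9 over brighter features and 0 to 2 with single arrays left out. Trav12-2 a turned from 0.0033 to -0.03 with centred arrays, and ranged from -0.032 to 0.068 when single arrays were left out. Trav9d-3 a turned from 0.02 to -0.017 with quantile normalisation and -0.013 with centred arrays. For these counts and turns the cause was not tested, apart from the fewer samples or features of some.

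Samples with the same replicate number did not deviate together (r = -0.0032, 0.00063 and -0.024 over all probe sets), and none correlated best with its own number. No pairing by number was thus seen, though with 3 arrays a genotype the check is a weak one. With the replicate number as a block, the segment rows lower at an adjusted p under 0.1 were 0, and the companion genes 7 higher and 0 lower.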
